A study of Arabidopsis thaliana with 9 samples.

Results

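In seedling roots fixed aboard a jet, 69 genes chosen by a rule read lower on every array than in roots fixed on the ground. They are the members of a set of 69 among 16722 probe sets that were each paired with exactly 1 gene. A probe set is a group of array probes read as 1 value. A member had to have its highest value on the 6 in-flight arrays below its lowest value on the 3 ground arrays. Its mean also had to lie at least 0.4 below the ground mean in both in-flight groups, and its ground mean had to be at least 5, all on the log2 scale. A further 5 probe sets met these conditions and were left out by name: AT1G72920, AT1G76600, GH3.3, UGT72E1 and WES1. The rule bars chloroplast-encoded genes and the UGT, BGLU, WRKY and XTH families. Of these, UGT72E1 alone met the numeric conditions, and it is counted among the 5. Because these values chose the members, the distance of a member from ground is given below as a description, and no support is drawn from a test of it.

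All 9 arrays measured whole roots of Arabidopsis thaliana seedlings 10 days old, of the Wassilewskija (WS) cultivar and the genotype pCaMV35S:14-3-3κ:GFP, grown in continuous light and fixed in RNAlater. That genotype overexpresses a 14-3-3 protein, a phosphoprotein-binding adaptor, fused to green fluorescent protein under a viral promoter active in most plant cells. All groups, ground included, carried the transgene, and no wild type was among the samples used here. Seedlings sat in Kennedy Space Center fixation tubes (KFTs), which flood the plants with fixative when actuated. The ground group came from a tube held by a person and actuated while the jet was in the air, and both in-flight tubes travelled in flight suit pockets. By the treatment protocol, the tube of the first-actuated group was triggered during low-altitude acceleration, and that of the last-actuated group after a parabola, in which a climb at 4 g of roughly 30 s led into some 10 s of microgravity. The design text instead puts the in-flight actuation about 1.5 min into regained level flight and does not separate the tubes. Each group was 3 root pools from a single tube, so tube and condition cannot be told apart, and a p-value measures the spread between pools of a tube.

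Plant roots adjust transcript levels within minutes when they are moved, shaken, loaded or exposed to a change in light or gravity. Transcripts with short half-lives can drop in that time once their synthesis slows, and many of them encode transcription factors and signalling proteins. Light signalling genes such as HYH, and lateral root genes that respond to auxin such as LBD29, are well studied examples of root transcripts set by light and hormones. In bulk root RNA, fewer cells of a type and less RNA per cell cannot be told apart.

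Array medians over named probe sets were 3.41 to 3.43 in the first-actuated group, above every array of the ground and last-actuated groups, whose lowest was 3.36. The mean of the 69 members was 6.32, 6.51 and 6.30 on the ground arrays. It was 5.68, 5.60 and 5.64 on the first-actuated arrays and 5.77, 5.65 and 5.66 on the last-actuated arrays. Ground replicate 2 therefore stood above the other ground arrays. It held the highest ground value for 47 of the 69 members, against 41.8% of the 1-gene probe sets with a ground mean of at least 5. Without ground replicate 2, the same rule gave 64 probe sets, of which 49 were members, and the members' median distance from ground moved from -0.65 to -0.61 in the first-actuated and from -0.63 to -0.54 in the last-actuated group. Few tissue markers had a named probe set, 2 of 40 for root (EXPA7 and EXPA18) and 2 of 23 for shoot (LHB1B2 and RCA). The summed linear level of the root markers was 105.4 to 110.2 on ground, 89.4 to 102.0 in first- and 88.7 to 128.7 in last-actuated roots. That of the shoot markers was 373.4 to 416.0, 482.1 to 658.5 and 380.8 to 394.7, and the part of either in the results was not tested.

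The members were 69 different protein-coding loci, of which 10 carry a symbol other than the locus identifier. They lay on all 5 chromosomes, with 22 on chromosome 1 (31.9%, against 26.0% of all 1-gene nuclear probe sets), 10 on chromosome 2 (14.5%, against 15.6%), 15 on chromosome 3 (21.7%, against 20.5%), 7 on chromosome 4 (10.1%, against 14.9%) and 15 on chromosome 5 (21.7%, against 23.1%). By what their products are known or predicted to do, 5 are transcription factors, 1 an inhibitor of photoreceptors, 5 receptors, kinases or leucine-rich repeat proteins, and 2 proteins with a C1 domain. A further 4 are transporters, and 9 were placed by family under lipid and acyl metabolism, acyltransferases of any substrate included. Another 3 act in redox reactions, 8 in protein turnover and trafficking, 6 in the nucleus or on RNA and 3 in plastid photosynthesis. A group of 7 belongs to other enzyme or domain families. No role is given for the remaining 16. The heatmap by role shows every member on every array.

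**Figure D1:**
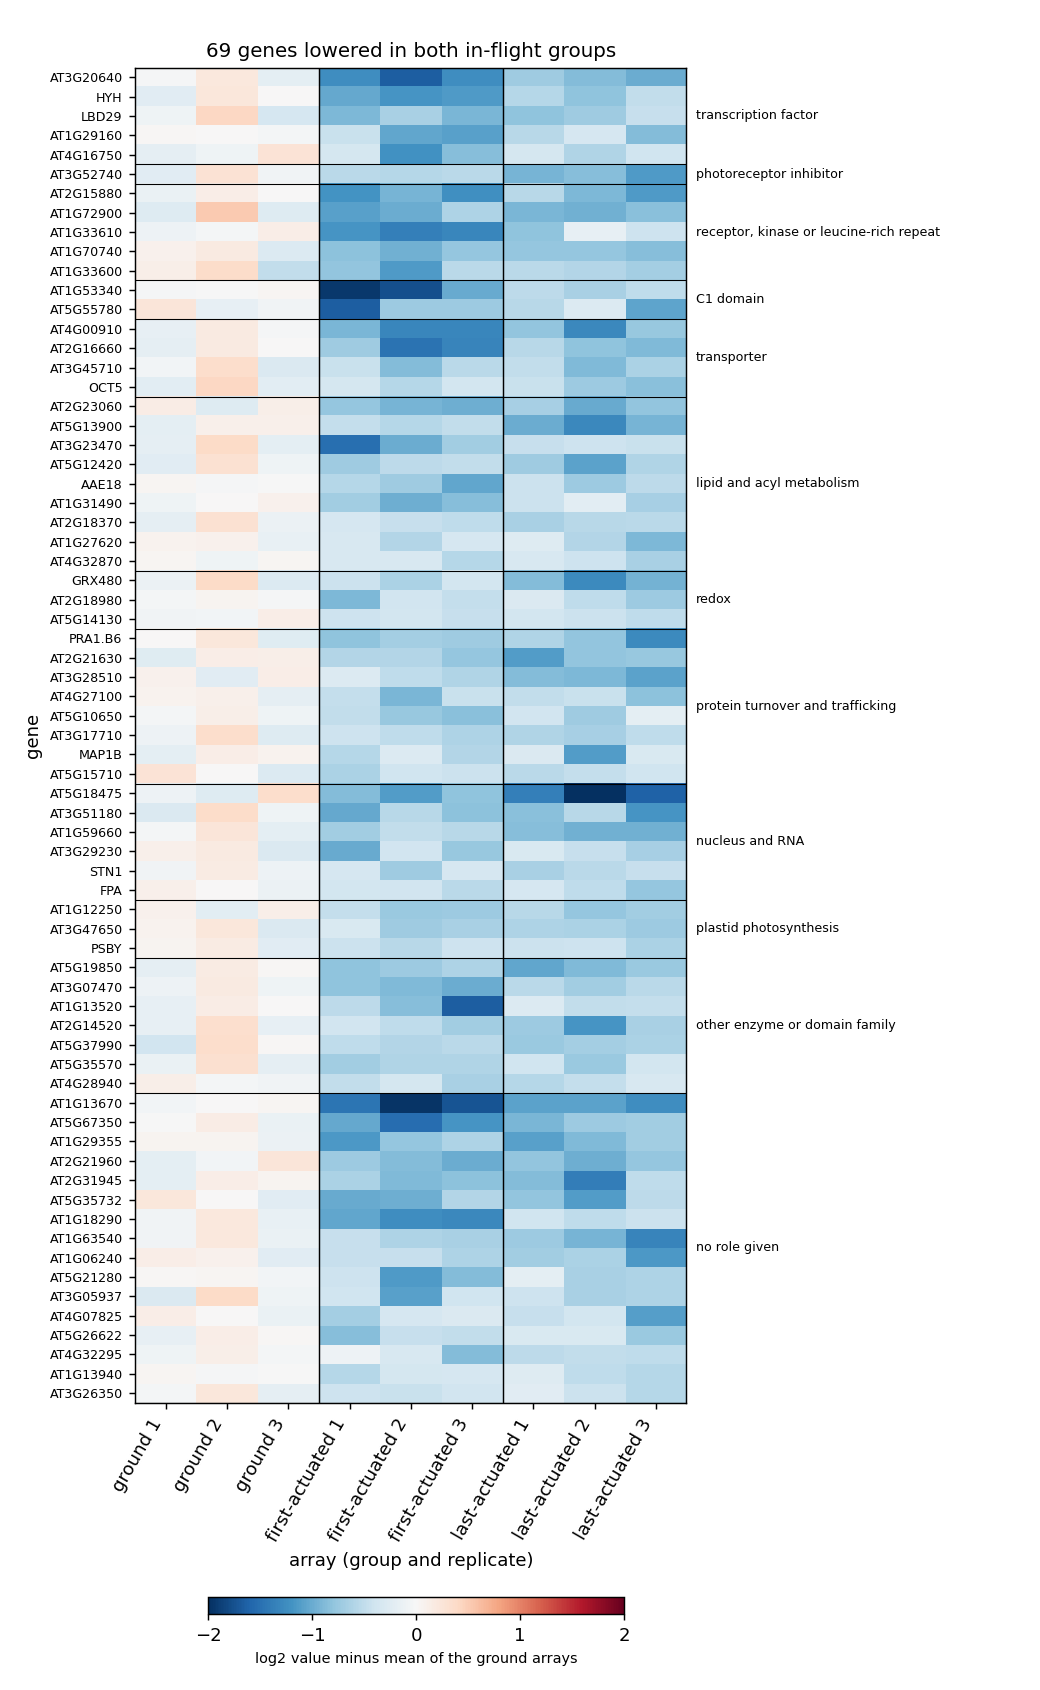
Each row is 1 of the 69 genes, grouped by role, and each column is 1 of the 9 arrays. Colour is the log2 value minus the mean of the 3 ground arrays. Blue cells fill the 6 in-flight columns of every gene by construction, and the ground replicate 2 column is the reddest of the ground columns, holding the highest ground value for 47 genes.

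Members lay 0.40 to 1.72 below ground in first-actuated roots and 0.41 to 1.72 in last-actuated roots. The median differences from ground were -0.65 and -0.63, where the medians over all 17481 tested probe sets were 0.01 and 0.00. As a linear ratio, the lowest member stood at 0.304 of its ground level in first- and 0.303 in last-actuated roots. In limma's fit across all probe sets, 40 members had an adjusted p under 0.05 as lower in first-actuated roots, where 2.64% of all tested probe sets did, and 27 as lower in last-actuated roots, where 0.881% did. The rule used both contrasts, so nothing is read from these counts. Without any size condition, all 6 in-flight values lay below all 3 ground values in 2.91% of the 1-gene probe sets, and the full numeric conditions were met by 0.443%. The gap between a member's lowest ground and highest in-flight value ran from 0.0075 for AT3G47650 to 1.03 for AT1G13670, with a median of 0.24.

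Among the 5 transcription factors, AT3G20640, a protein of the basic helix-loop-helix family, lay farthest from ground. Its ground arrays read 6.71, 6.95 and 6.54, its first-actuated arrays 5.49, 5.09 and 5.50, and its last-actuated arrays 6.02, 5.87 and 5.74. Every last-actuated value was above every first-actuated value and below every ground value. The difference from ground was 1.37 ± 0.14 (limma's SE) in first- and 0.86 ± 0.14 in last-actuated roots, and the last-actuated value exceeded the first-actuated by 0.52 (95% interval 0.20 to 0.84), with an adjusted p of 0.0629.

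HYH encodes a bZIP factor closely related to HY5, which promotes light responses. It read 5.75, 6.20 and 5.98 on the ground, 4.95, 4.80 and 4.85 in first- and 5.40, 5.17 and 5.49 in last-actuated roots. The 3 groups did not overlap, and the first-actuated values were the lowest. HYH lay 1.11 ± 0.13 below ground in the first-actuated group and 0.62 ± 0.13 in the last-actuated group. Its difference between the in-flight groups was 0.48 (95% interval 0.20 to 0.77), which missed the threshold at an adjusted p of 0.0523. A protein that inhibits cryptochromes, the blue-light receptors, is encoded by AT3G52740. That gene read 4.78, 5.31 and 4.95 on the ground, 4.47, 4.45 and 4.47 in first- and 4.09, 4.16 and 3.88 in last-actuated roots. Here the order was the other way, with all last-actuated values below all first-actuated values. The difference between the in-flight groups was -0.42 (95% interval -0.72 to -0.13) at an adjusted p of 0.0984, so neither HYH nor AT3G52740 passed the test for a difference within the flight.

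LBD29, a LOB-domain factor that acts in lateral root formation downstream of auxin response factors, read 5.63, 6.12 and 5.37 on the ground. Its values were 4.81, 5.05 and 4.79 in first- and 4.90, 5.00 and 5.25 in last-actuated roots. Ground replicate 2 was the highest ground array, and the in-flight groups overlapped. LBD29 lay 0.82 ± 0.18 and 0.66 ± 0.18 below ground, and the in-flight groups differed by 0.16 (95% interval -0.23 to 0.56). The Dof factor gene AT1G29160 was even on the ground, at 6.94, 6.92 and 6.88, and more spread in flight, at 6.47, 5.87 and 5.83 in first- and 6.36, 6.57 and 6.05 in last-actuated roots. The AP2/ERF factor gene AT4G16750 lay 0.80 and 0.45 below ground. All 5 transcription factors had a higher mean in last- than in first-actuated roots, by 0.16 to 0.52, and 0 of the 5 passed limma's test for that difference. Roles were assigned after the members were seen, and over all 69 members 35 were higher and 34 lower in last-actuated roots.

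LBD29 was the single member on a list of 27 early auxin response genes, of which 11 had a named probe set. Among the 11, 3 were called lower and 0 higher in first-actuated roots and 1 lower and 0 higher in last-actuated roots, and 1 was lower and 1 higher in last- than in first-actuated roots. Over all tested probe sets, 2.64% were called lower and 2.25% higher in the first-actuated and 0.881% and 0.927% in the last-actuated group, and 3.15% and 3.58% between the in-flight groups. GH3.3 and WES1, auxin-conjugating enzymes left out of the members by name, were the other list genes called lower in first-actuated roots. All 3 met the numeric conditions of the rule, so nothing is read from the counts against ground. The 1 list gene called lower in last-actuated roots was GH3.3, and LBD29 was not called there (limma adjusted p 0.114). The medians of the 11 genes were 0.02 and 0.01 against ground in first- and last-actuated roots and -0.01 between the in-flight groups. Each median is the value of IAA29, whose ground mean was 2.37, under the level the rule asked for. GH3.4, PUCHI, IAA20 and IAA30 also had low ground means, from 1.97 to 3.04. The medians therefore say little about auxin genes with a clear signal. LBD16 and HAT2, with ground means of 7.62 and 9.33, did not fall in both in-flight groups. LBD16 was at 0.44 and 0.26 from ground in first- and last-actuated roots, neither called (limma adjusted p 0.111 and 0.481). HAT2 was at -0.50 and 0.51, neither called (adjusted p 0.0604 and 0.104). Between the in-flight groups, HAT2 was the gene called higher (1.01, adjusted p 0.00159) and GH3.3 the gene called lower (-0.88, adjusted p 0.0445). No member was on any of the other lists, of which the flavonoid list had 1 of 10 genes measured (DFR), the cytokinin list 2 of 7 (ARR15 and RR16) and the jasmonate and rapid stress list 1 of 11 (STZ). DFR, ARR15 and RR16 were not called in any comparison. Their ground means were 2.42, 1.99 and 1.93, so low that a fall might not show. STZ, a zinc finger repressor induced by stress, rose by 0.52 in first-actuated roots (adjusted p 0.0338) and was lower in last- than in first-actuated roots, with a difference of -0.87 (adjusted p 0.00203). The nitrate, ethylene and mitotic cell cycle lists had 0 genes with a named probe set.

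In the plot of the 12 members with the largest mean distance from ground, 3 of the panels show genes of the receptor, kinase and leucine-rich repeat group. AT2G15880 encodes a leucine-rich repeat extensin, a cell wall protein type with a receptor-like repeat domain. Its values were 8.30, 8.58 and 8.44 on the ground, 7.24, 7.51 and 7.22 in first- and 7.88, 7.54 and 7.32 in last-actuated roots. The in-flight groups overlapped, and the gene lay 1.12 ± 0.15 and 0.86 ± 0.15 below ground.

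**Figure D2:**
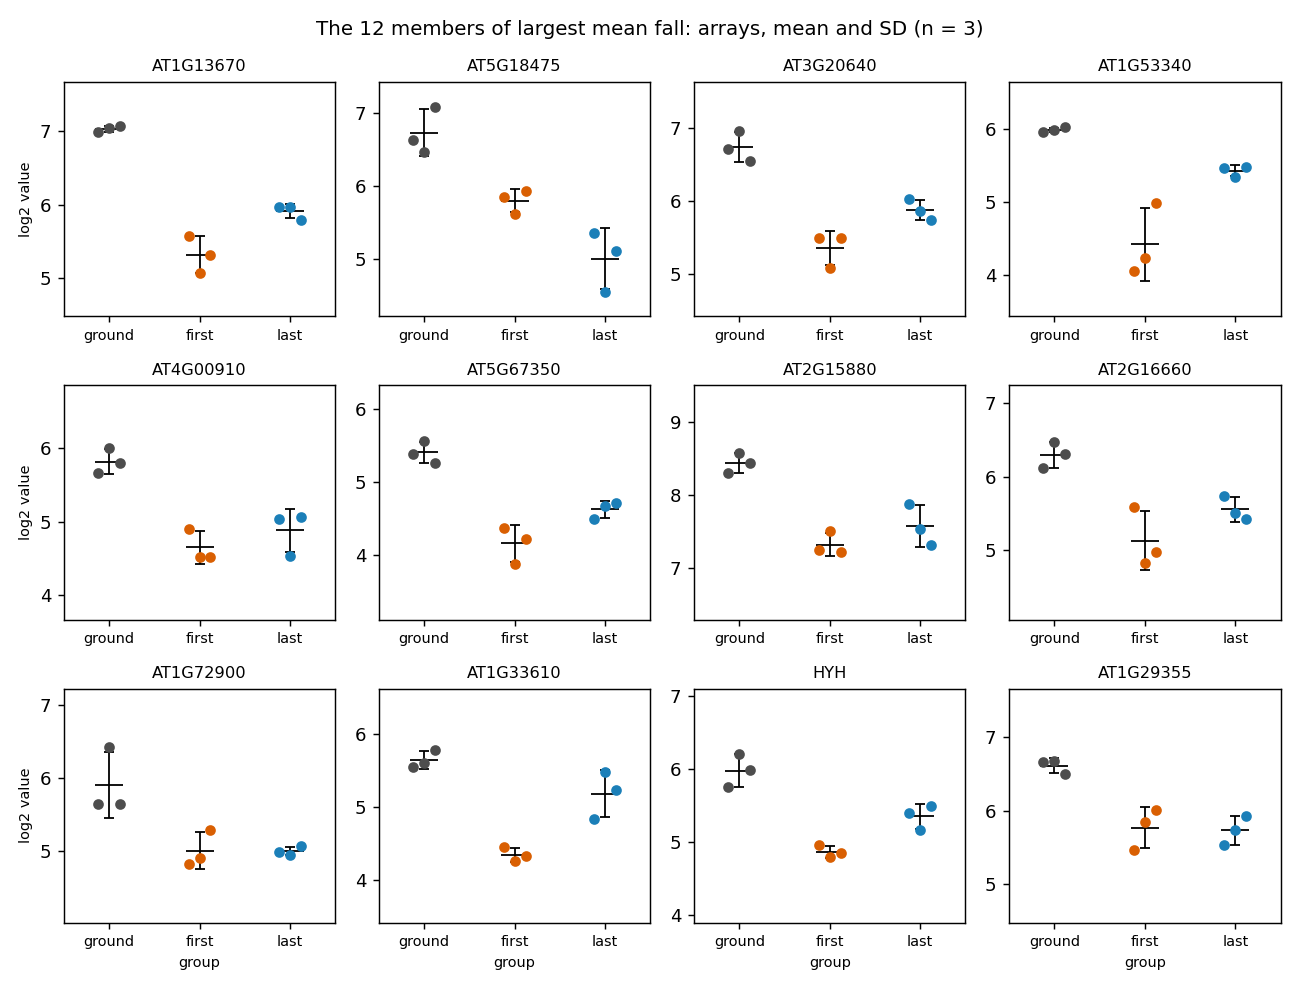
Log2 value (vertical axis) of 12 genes by group (horizontal axis), each point 1 array, with the mean and SD of 3 arrays. Each panel spans the same height on the log2 scale. In all panels the 6 in-flight points sit below the 3 ground points, as the rule required. AT1G13670, AT3G20640, AT1G53340, AT5G67350, AT1G33610 and HYH have all last-actuated points above the first-actuated points, and AT5G18475 has them all below. Of these, limma called only AT1G13670, AT1G53340 and AT1G33610 between the in-flight groups. The share of all probe sets that separate in this way was not counted.

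AT1G33610, a member of the leucine-rich repeat family, differed most within the flight among the genes of this group. The ground arrays read 5.55, 5.61 and 5.78, the first-actuated 4.46, 4.27 and 4.33 and the last-actuated 4.84, 5.48 and 5.23. All 3 first-actuated values lay below all last-actuated values. The gene was 1.29 ± 0.15 below ground in first-actuated roots and 0.46 ± 0.15 in last-actuated roots. It was higher in last- than in first-actuated roots by 0.83 ± 0.15 (SE), with an adjusted p of 0.00797. AT1G33600, of the same family, 2 gene positions away and also a member, read 5.88, 6.13 and 5.27 on the ground, 4.97, 4.62 and 5.22 in first- and 5.22, 5.17 and 5.08 in last-actuated roots. Its in-flight values overlapped, and it differed within the flight by 0.22 (95% interval -0.25 to 0.68). These neighbours are the 1 pair of members within 2 gene positions of each other, and their repeats are alike in type, so probes could be shared between them, which was not tested.

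AT1G72900, which encodes a protein with a TIR domain, the signalling domain of one class of immune receptors, read 5.65, 6.43 and 5.65 on the ground. Ground replicate 2 stood well above the other ground arrays. The in-flight values were 4.83, 4.91 and 5.30 in first- and 4.99, 4.95 and 5.07 in last-actuated roots, so both groups lay 0.90 ± 0.20 and 0.90 ± 0.20 below ground. AT1G72920, left out of the members by name, lies 2 gene positions from it. The protein kinase gene AT1G70740 lay 0.85 and 0.80 below ground, with in-flight values between 6.05 and 6.24. Within the flight, AT1G72900 differed by -0.01 (95% interval -0.45 to 0.44) and AT1G70740 by 0.05 (95% interval -0.21 to 0.32).

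The C1 domain, a cysteine- and histidine-rich zinc-binding fold, occurs in large families of plant proteins. AT1G53340 read 5.96, 5.98 and 6.02 on the ground, 4.05, 4.23 and 4.99 in first- and 5.47, 5.34 and 5.48 in last-actuated roots. First-actuated replicate 3 was well above replicates 1 and 2, and all first-actuated values lay below all last-actuated values. The gene lay 1.57 ± 0.20 below ground in first-actuated roots and 0.56 ± 0.20 in last-actuated roots. It was higher in last- than in first-actuated roots by 1.01 ± 0.20 (SE) (adjusted p 0.0131). AT5G55780 read 6.30, 5.90 and 5.99 on ground, 4.42, 5.33 and 5.33 on first-actuated and 5.51, 5.79 and 5.00 on last-actuated arrays, with first-actuated replicate 1 the lowest array and wide spreads in both in-flight groups. Its in-flight groups overlapped and differed by 0.40 (95% interval -0.18 to 0.99).

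Of the 4 transporter genes, AT4G00910 belongs to the family of aluminium-activated malate transporters, anion channels of plant membranes. It read 5.67, 6.00 and 5.80 on the ground, 4.90, 4.52 and 4.52 in first- and 5.04, 4.53 and 5.07 in last-actuated roots. The in-flight groups overlapped, and it lay 1.18 ± 0.17 and 0.94 ± 0.17 below ground. AT2G16660, of the major facilitator superfamily, read 6.12, 6.48 and 6.30 on the ground, 5.58, 4.82 and 4.97 in first- and 5.74, 5.50 and 5.42 in last-actuated roots. First-actuated replicate 1 overlapped the last-actuated arrays, and the in-flight groups differed by 0.43 (95% interval 0.01 to 0.84). AT3G45710, of the NRT1/PTR family and linked to chloride transport in roots, lay 0.62 and 0.67 below ground. OCT5, of the organic cation and carnitine transporter family, lay 0.43 and 0.67 below ground, and ground replicate 2 was its highest array at 5.75 against 5.14 and 5.13.

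The 9 genes placed under lipid and acyl metabolism lay 0.40 to 1.06 below ground in first- and 0.43 to 1.07 in last-actuated roots. They were placed by family, acyltransferases included, so not all are lipid genes. AT5G13900 encodes a lipid transfer protein, a small secreted carrier of lipids used in cuticle and suberin. Its ground arrays read 9.40, 9.69 and 9.69, its first-actuated arrays 9.12, 9.02 and 9.10 and its last-actuated arrays 8.60, 8.30 and 8.66. All last-actuated values were below all first-actuated values. It lay 0.51 ± 0.12 below ground in first-actuated roots and 1.07 ± 0.12 in last-actuated roots, and it was lower in last- than in first-actuated roots, with a difference of -0.56 ± 0.12 (SE) (adjusted p 0.0195). AT2G18370, a gene of the same family, lay 0.44 and 0.58 below ground and differed within the flight by -0.14 (95% interval -0.42 to 0.14).

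AT3G23470, of the cyclopropane-fatty-acid synthase family, had the opposite order. Its arrays read 8.43, 8.98 and 8.41 on the ground, 7.10, 7.61 and 7.92 in first- and 8.14, 8.20 and 8.17 in last-actuated roots. The last-actuated arrays were close together and above all first-actuated arrays, and the difference within the flight was 0.63 (95% interval 0.17 to 1.08), with an adjusted p of 0.11. AT2G23060, which encodes an acetyltransferase of the N-acetyltransferase superfamily, lay 0.89 ± 0.13 and 0.82 ± 0.13 below ground. AT5G12420, of the wax ester synthase and diacylglycerol acyltransferase family, lay 0.58 and 0.79 below. AAE18, an acyl-activating enzyme that acts on a precursor of a synthetic auxin, read 7.21, 7.15 and 7.16 on the ground, 6.61, 6.46 and 6.14 in first- and 6.74, 6.45 and 6.66 in last-actuated roots. Its ground arrays were close together, and its in-flight groups overlapped. AT1G31490 and AT1G27620, which belong to a family of acyl-coenzyme A dependent acyltransferases, and AT4G32870, with a lipid-binding START-like fold, lay 0.40 to 0.84 below ground in first-actuated and 0.43 to 0.58 in last-actuated roots.

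The redox group held 1 glutaredoxin and 2 class III peroxidases, enzymes that use hydrogen peroxide in the cell wall. GRX480, a glutaredoxin that binds TGA transcription factors and links salicylic acid to jasmonate signalling, read 5.83, 6.33 and 5.68 on the ground. Its values were 5.51, 5.32 and 5.58 in first- and 5.08, 4.66 and 5.00 in last-actuated roots. All last-actuated values lay below all first-actuated values, and the difference within the flight was -0.55 (95% interval -0.94 to -0.17), with an adjusted p of 0.0926. Of the peroxidase genes, AT2G18980 read 8.36, 8.44 and 8.37 on the ground, 7.49, 8.01 and 7.91 in first- and 8.11, 7.88 and 7.66 in last-actuated roots. AT5G14130 read 4.98, 5.00 and 5.19 on ground, 4.64, 4.69 and 4.59 on first-actuated and 4.69, 4.63 and 4.55 on last-actuated arrays, among the smallest distances from ground in the set, 0.42 and 0.43. Neither peroxidase gene was called within the flight, where they differed by 0.07 (95% interval -0.26 to 0.41) and -0.02 (95% interval -0.22 to 0.18).

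In the group of protein turnover and trafficking, AT3G28510 encodes an AAA-type ATPase. It read 5.49, 5.17 and 5.53 on the ground, 5.12, 4.89 and 4.80 in first- and 4.53, 4.49 and 4.33 in last-actuated roots. The last-actuated values were below all first-actuated values, and the gene was lower in last- than in first-actuated roots, with a difference of -0.48 ± 0.12 (SE) (adjusted p 0.0458). PRA1.B6, a prenylated Rab acceptor of the vesicle system, read 8.11, 8.33 and 7.87 on the ground, 7.31, 7.43 and 7.40 in first- and 7.50, 7.31 and 6.83 in last-actuated roots. Last-actuated replicate 3 was its lowest array. AT2G21630, of the Sec23/Sec24 coat of vesicles leaving the endoplasmic reticulum, lay 0.65 and 0.89 below ground. AT4G27100, a predicted activator of Rab GTPases' hydrolysis, lay 0.61 and 0.58 below. The other 4 of this group are 2 F-box protein genes, AT5G15710 and AT3G17710, the RING-type ubiquitin ligase gene AT5G10650 and MAP1B, a methionine aminopeptidase of organelles. They lay 0.47 to 0.70 below ground in first-actuated and 0.43 to 0.59 in last-actuated roots.

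AT5G18475, a pentatricopeptide repeat protein gene of the nucleus and RNA group, lay as far below ground in last-actuated roots as any member did in first-actuated roots. Most proteins of its family bind organelle RNA. Its ground arrays read 6.63, 6.47 and 7.09, its first-actuated arrays 5.86, 5.62 and 5.93 and its last-actuated arrays 5.36, 4.55 and 5.12. The 3 groups did not overlap, with last-actuated replicate 2 the lowest array. It lay 0.93 ± 0.21 below ground in first-actuated roots and 1.72 ± 0.21 in last-actuated roots, and the last-actuated value differed from the first-actuated by -0.79 (95% interval -1.26 to -0.32), which missed the threshold at an adjusted p of 0.0525. The other pentatricopeptide repeat gene, AT3G29230, lay 0.71 and 0.48 below ground, and its in-flight groups differed by 0.24 (95% interval -0.15 to 0.63).

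AT3G51180, a CCCH zinc finger gene, read 4.93, 5.58 and 5.13 on the ground, 4.19, 4.65 and 4.39 in first- and 4.38, 4.65 and 4.03 in last-actuated roots. Its in-flight groups overlapped. AT1G59660, related to a nucleoporin of the nuclear pore, lay 0.58 and 0.92 below ground. STN1, a telomere capping protein, and FPA, an RNA-binding protein that controls transcript ends and flowering time, lay 0.46 and 0.43 below ground in first- and 0.55 and 0.54 in last-actuated roots. STN1 had a second probe set, with a ground mean of 4.02, whose differences from ground were -0.22 ± 0.12 and -0.22 ± 0.12 (SE) and were not called at adjusted p values of 0.388 and 0.500. AT1G29355 and AT1G31490 also had a second probe set, with ground differences of -0.23 and -0.10 for the first and 0.09 and 0.07 for the second, none of them called. The second probe sets of all 3 genes had a lower ground mean than the member, so they gave no second reading at the level the rule asked for.

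The 3 genes of plastid photosynthesis encode the photosystem II protein PSBY, a thylakoid lumen protein with pentapeptide repeats (AT1G12250) and a DnaJ-type zinc finger protein of Rubisco assembly (AT3G47650). PSBY read 5.11, 5.22 and 4.83 on the ground, 4.62, 4.50 and 4.63 in first- and 4.63, 4.64 and 4.43 in last-actuated roots. AT1G12250 lay 0.65 and 0.68 below ground and AT3G47650 0.55 and 0.66. Their in-flight groups overlapped, and differences within the flight were -0.02 (95% interval -0.28 to 0.23), -0.03 (95% interval -0.30 to 0.24) and -0.11 (95% interval -0.44 to 0.22). The summed shoot markers were higher on every first-actuated array than on any ground array. Of these markers, LHB1B2, a light-harvesting protein of photosystem II, was lower in last- than in first-actuated roots, with a difference of -1.96 ± 0.28 (SE), with an adjusted p of 0.00224. Against ground, LHB1B2 was at 0.90 in first- and -1.06 in last-actuated roots, neither called (adjusted p 0.0974 and 0.102). RCA, the activator of Rubisco, was at 0.24 and 0.26 from ground, also not called (adjusted p 0.175 and 0.224), and differed by 0.02 within the flight (adjusted p 0.949). The part of shoot RNA in the values of the 3 plastid genes was not tested.

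Of the 7 genes of other enzyme or domain families, AT5G19850, an alpha/beta hydrolase, read 5.70, 6.05 and 5.91 on the ground, 5.09, 5.16 and 5.26 in first- and 4.85, 5.00 and 5.15 in last-actuated roots. Its in-flight groups overlapped. AT1G13520, of a plant family of unknown function, read 6.10, 6.42 and 6.28 on ground, 5.75, 5.41 and 4.62 on first-actuated and 6.00, 5.78 and 5.79 on last-actuated arrays. First-actuated replicate 3 was far below the other arrays, and the difference within the flight, 0.60 (95% interval 0.08 to 1.12), had a wide interval. AT3G07470, of another family of unknown function, lay 0.89 and 0.59 below ground, and AT2G14520, with CBS domains that bind adenosyl groups, lay 0.52 and 0.85 below. The last 3 of this group, AT5G35570 of the O-fucosyltransferase family, AT5G37990 of the SABATH methyltransferase family and AT4G28940 of the phosphorylase superfamily, lay 0.50 to 0.63 below ground in first-actuated and 0.46 to 0.68 in last-actuated roots.

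The member farthest from ground, AT1G13670, is one of the 16 for which no role is given. It read 6.99, 7.05 and 7.07 on the ground, 5.57, 5.07 and 5.31 in first- and 5.96, 5.96 and 5.80 in last-actuated roots. The 3 groups did not overlap, and its ground arrays lay close together. It was 1.72 ± 0.12 below ground in first- and 1.13 ± 0.12 in last-actuated roots. It was higher in last- than in first-actuated roots by 0.59 ± 0.12 (SE) (adjusted p 0.0172). AT1G18290 read 5.62, 5.89 and 5.54 on the ground, 4.65, 4.44 and 4.39 in first- and 5.29, 5.17 and 5.25 in last-actuated roots. Here too the groups did not overlap, and the last-actuated values exceeded the first-actuated by 0.74 ± 0.11 (SE), with an adjusted p of 0.00347.

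AT5G67350 read 5.39, 5.56 and 5.26 on the ground, 4.37, 3.88 and 4.22 in first- and 4.49, 4.68 and 4.71 in last-actuated roots. All last-actuated values lay above all first-actuated values, and the difference within the flight was 0.47 (95% interval 0.17 to 0.77), which missed the threshold at an adjusted p of 0.0727. AT1G29355 and AT5G35732 had nearly equal distances in both groups, 0.85 and 0.88 for the first and 0.86 and 0.81 for the second. AT2G21960 and AT2G31945 were 0.87 and 0.78 below ground in first- and 0.84 and 0.92 in last-actuated roots. AT1G63540 and AT4G07825, by contrast, had larger distances in last-actuated roots, 0.99 against 0.57 and 0.64 against 0.43. Their differences within the flight, -0.42 (95% interval -0.75 to -0.08) and -0.21 (95% interval -0.63 to 0.21), were not called. The other 7, AT1G06240, AT5G21280, AT3G05937, AT5G26622, AT4G32295, AT1G13940 and AT3G26350, lay 0.41 to 0.80 below ground in first-actuated and 0.41 to 0.82 in last-actuated roots.

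The rule did not use the difference between the in-flight groups, although both groups had to lie below ground. Last-actuated values were higher for 35 members and lower for 34, and the median difference was 0.00, as it was over all tested probe sets. The median size of the difference, regardless of sign, was 0.21 for members, 0.18 for 1-gene probe sets with a ground mean of at least 5 and 0.13 for all tested. Of the 69 members, 6 (8.7%) were called in last-actuated against first-actuated roots, 2 lower and 4 higher, where 6.73% of all tested probe sets were called, 3.15% lower and 3.58% higher. Among 1-gene probe sets with a ground mean of at least 5, 13.8% were called, 5.35% lower and 8.42% higher. The members' share lay near that of all tested probe sets and below that of this brighter set, which was not matched to the members by level. At an unadjusted p under 0.05 there were 19 members. The other 63 members had 95% intervals that reached 0.20 to 0.58 to either side of the estimate, median 0.33, so their data leave room for a difference of that size either way.

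**Figure D3:**
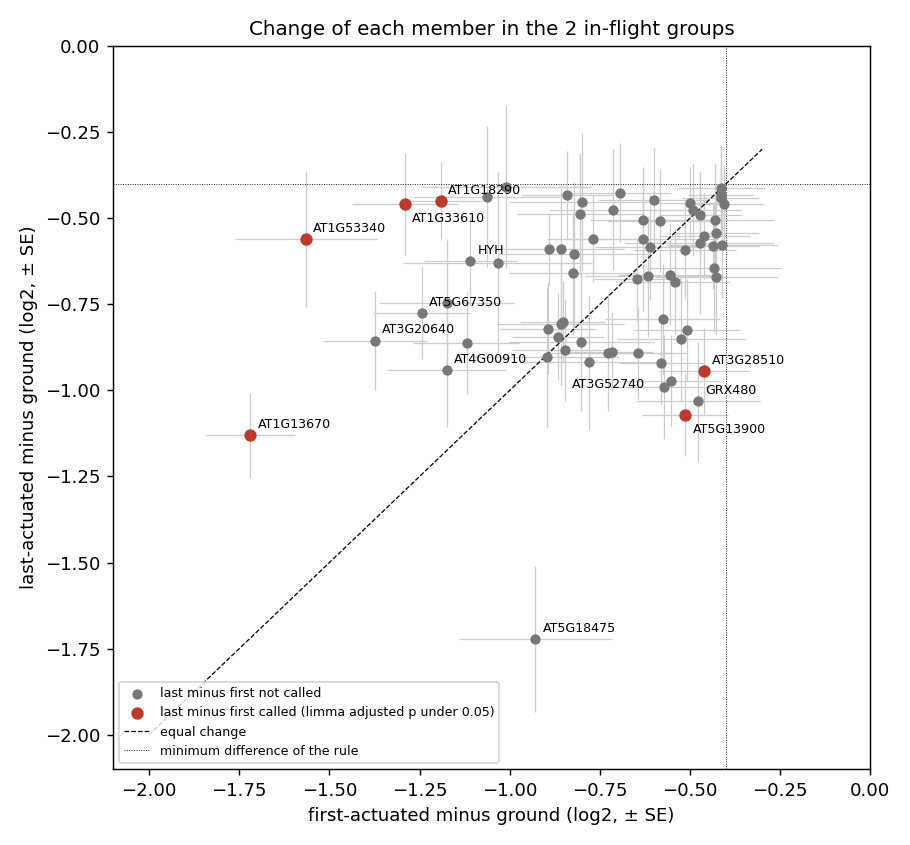
First-actuated minus ground (horizontal axis) and last-actuated minus ground (vertical axis) of each of the 69 members on the log2 scale, with limma's SE as bars. Both axes share the ground arrays, and the dotted lines mark the minimum distance of 0.4. The 6 red points, called between the in-flight groups, lie off the line of equal change, 4 above it and 2 below it, and AT5G18475 stands alone at the bottom.

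The 4 members that were higher in last-actuated roots were AT1G53340, AT1G33610, AT1G18290 and AT1G13670, and the 2 that were lower were AT5G13900 and AT3G28510. Each had 3 last-actuated values on the same side of its 3 first-actuated values, which adds no support to a call on the same arrays. AT1G18290 and AT1G33610 kept an adjusted p under 0.05 in all 17 alternative settings. AT3G28510 kept it in 1 of 16, and its call rests on the setting used. AT5G13900 lost it without first-actuated replicate 1 (adjusted p 0.0542) or 3 (0.0619) or last-actuated replicate 2 (0.0634). AT1G13670 lost it without first-actuated replicate 3 (0.0548) or last-actuated replicate 1 (0.0646) or 2 (0.0655), and with only the compared groups in the fit (0.0575). AT1G53340 lost it without first-actuated replicate 2 (0.0524) or last-actuated replicate 1 (0.0515) or 3 (0.056), and with only the compared groups (0.0545).

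**Figure D4:**
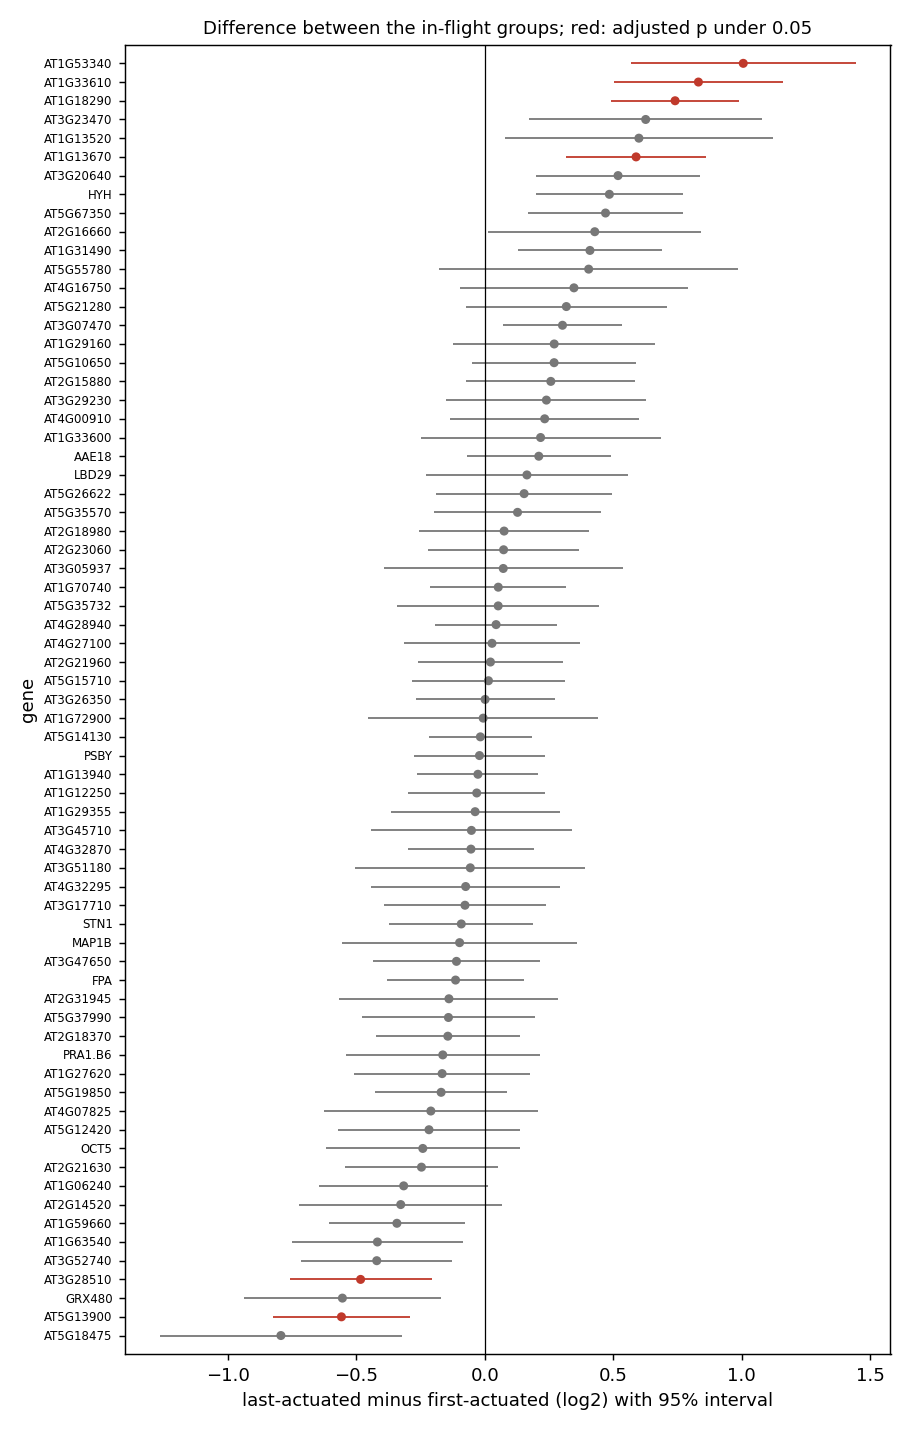
Last-actuated minus first-actuated difference (log2, horizontal axis) of the 69 genes (vertical axis), with limma's 95% interval from 3 arrays a group. Red marks the 6 genes with an adjusted p under 0.05. The differences run from -0.79 for AT5G18475 to 1.01 for AT1G53340.

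The median SD between arrays of a group was 0.20 for the members and 0.15 for 1-gene probe sets with a ground mean of at least 5. That set was not matched to the members by level. The 3 largest first-actuated SDs were 0.58 for AT1G13520, 0.53 for AT5G55780 and 0.50 for AT1G53340, in each case with 1 array apart from the other two. Of the 69 members, 6 lay on average at least 1 below ground over both in-flight groups and 10 less than 0.5. In first-actuated roots 13 lay at least 1 below, and in last-actuated roots 4: AT5G18475, AT1G13670, AT5G13900 and GRX480. Just inside the minimum distance were AT4G32870, AT1G13520 and AT1G27620, whose smaller distance was 0.40, 0.41 and 0.41. Just outside were AT2G32600, AT4G33150 and AT1G12990, at 0.40, 0.40 and 0.39. Just inside the ground level were AT3G52740 and PSBY, with ground means of 5.01 and 5.06, and just outside AT5G28320 and GLR1.4, both with 4.96.

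Genes beside the members on the chromosome were measured for 68 members, with 177 probe sets of neighbours within 2 gene positions that are not members. A neighbour with more than 1 probe set, such as AT1G06260, was counted once for each. Of the 177, AT1G72920 met the numeric conditions of the rule and was left out of the members by name. Among all 177, 9 (5.08%) were lower and 6 (3.39%) higher in first-actuated roots, where 2.64% and 2.25% of all tested probe sets were called. In last-actuated roots 2 (1.13%) were lower and 0 higher, where 0.881% and 0.927% were called. Without AT1G72920, these counts of lower neighbours were 8 of 176 (4.55%) and 1 (0.568%). Between the in-flight groups 9 (5.08%) were lower and 7 (3.95%) higher in last-actuated roots, where 3.15% and 3.58% were called. The neighbours' median differences were -0.02, -0.01 and 0.01 in these comparisons, and 9 (5.08%), AT1G72920 among them, had all in-flight values below all ground values, where 2.91% of 1-gene probe sets did.

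The neighbours of a member did not always lie on its side of ground. Those described and plotted here were picked after their values were seen and do not stand for all 177. Larger changes in first-actuated roots were called for others, among them AT5G13880 (1.68), LEP (1.16), ETFQO (-1.28) and AT2G15830 (-1.24). AT1G33590, the leucine-rich repeat gene next to AT1G33600, rose by 0.49 ± 0.10 (SE) in first-actuated roots (adjusted p 0.0159) and was lower in last- than in first-actuated roots, with a difference of -0.55 (adjusted p 0.00672). AT3G45700, next to AT3G45710 and of the same transporter family, fell by 0.96 in last-actuated roots (adjusted p 0.0394) and was at 0.71 ± 0.20 (SE) in first-actuated roots, which was not called (adjusted p 0.0723). It was lower in last- than in first-actuated roots, with a difference of -1.67 (adjusted p 0.00092), where AT3G45710 differed by -0.05 (95% interval -0.44 to 0.34). AT3G07460, next to AT3G07470, fell by 0.83 in first-actuated roots (adjusted p 0.026) and was at -0.46 ± 0.18 (SE) in last-actuated roots (adjusted p 0.294). AT5G35735, next to AT5G35732, rose by 0.78 ± 0.12 (SE) in first-actuated roots (adjusted p 0.00475). Whether a member differed from its neighbour was not tested.

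**Figure D5:**
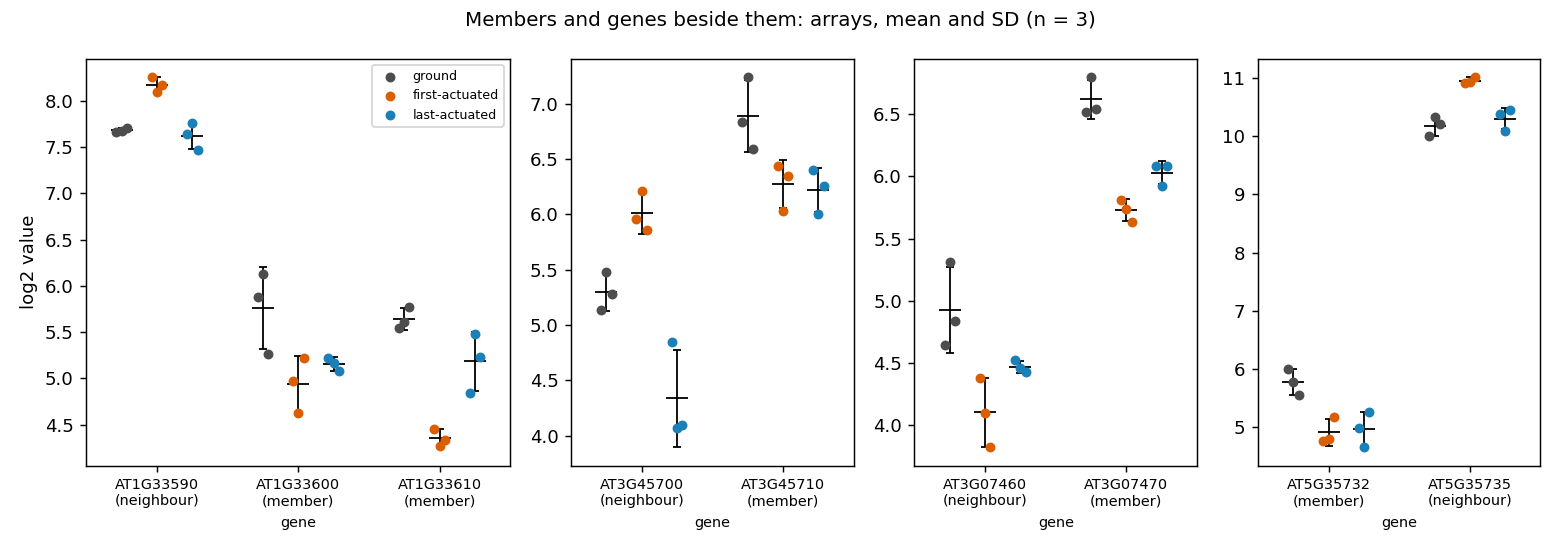
Log2 value (vertical axis) of members and of genes next to them (horizontal axis), 1 point per array, with the mean and SD of 3 arrays for ground, first-actuated and last-actuated roots. The vertical axes differ between panels, and levels are not comparable between genes. AT1G33590, AT3G45700 and AT5G35735 have first-actuated points above ground, where the members beside them have them below, and AT3G07460 has them below ground as AT3G07470 does.

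Outside the members, the genes most like the set were AT5G26770, AT5G51670 and AT1G65920, with a Pearson correlation of 0.966, 0.964 and 0.956 over the 9 arrays with the mean of the members. These values describe arrays that share groups and normalization. AT5G26770 was at -0.74 and -0.64 from ground with a ground mean of 3.32, under the level the rule asked for, and AT5G51670 was at -0.17 and -0.16, under the distance it asked for.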

How the data were processed

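RNA of 9 whole-root samples was hybridised to the Affymetrix AraGene 1.0 ST array. The authors deposited log2 values per probe set, made with RMA in oligo, and limma, R 4.0.0 and TAIR10 are also named, per the submitters' processing notes. RMA as usually run includes quantile normalization, which removes a change shared by most transcripts. No detection call, slide or scan date was used, and 0 per-sample columns were left aside. The number of arrays limits the precision.

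Of 38408 probe sets, 16722 were paired with 1 gene, 759 with several and 20927 were unnamed here. Symbols were updated by gene identifier for 16574 of the 1-gene probe sets from a RefSeq table of assembly TAIR10.1, which was used for names, gene type and neighbours only. Roles are general knowledge of gene families, not from the files.

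Differences were tested with limma 3.58.1 (lmFit, eBayes) in R 4.3.3 on the 17481 probe sets with at least 1 gene, with all 9 arrays in the fit and Benjamini-Hochberg adjustment over all of them, and called under an adjusted p of 0.05. The procedure was tested on simulated data. The members and gene lists were chosen with earlier results of these data known, and roles were assigned after the members were seen. The lists were early auxin response, nitrate, flavonoid, ethylene, jasmonate and rapid stress, cytokinin, mitotic cell cycle, and root and shoot markers. Lists by words of gene descriptions, promoter motifs and sequences were planned or possible and were not analysed here.

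Named with values were the 20 members of largest mean distance from ground, members called between the in-flight groups, members and probe sets at the edges of the rule, the 8 members with the highest ground means, up to 4 per role, members that are neighbours, and list genes that are members. Further members, some neighbours and second probe sets were added after their values were seen. Alternatives covered the arrays in the fit, the probe sets adjusted over, a level filter, centring, quantile normalization, array weights, a replicate block and leaving out each array.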

Additional observations from a re-analysis of the deposited data

Results flagged for a closer look

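In 6 of the 69 members (8.7%), the distance from ground differed between the in-flight groups by limma's test, which drew attention to them. That test called 6.73% of all tested probe sets and 13.8% of 1-gene probe sets with a ground mean of at least 5. The last-actuated minus first-actuated difference was -0.56 for AT5G13900 and -0.48 for AT3G28510, which lay farther below ground in last-actuated roots. It was 0.59 for AT1G13670, 0.74 for AT1G18290, 0.83 for AT1G33610 and 1.01 for AT1G53340, which lay farther below ground in first-actuated roots. Under alternative settings, AT3G28510 kept its call in 1 of 16, and AT1G18290 and AT1G33610 kept theirs in all 17. AT5G13900 kept it in 14 of 17, and AT1G13670 and AT1G53340 each in 13 of 17. All 3 last-actuated values of each gene lay on 1 side of its 3 first-actuated values. The share of all probe sets that separate in this way was not counted, so nothing is read from it.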

How the results depend on the processing

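Each group came from 1 tube, so no setting separates tube from condition, and signal over background was not known. The members' median differences moved by less than the spread between replicates, and no single-gene value reversed: of 893, 749 stayed on their side of the threshold, 103 lost a call and 41 gained one. The members called lower in first-actuated roots, 40 in the reported setting, numbered 25 with only the compared groups and 25 with all probe sets of the table, 50 with arrays centred on their medians, 50 of 57 with the filter at a mean over the 9 arrays of at least 5, and between 22 and 40 when an array was left out. For last-actuated roots the 27 became 38 of 57 with that filter, 33 with array weights and 12 to 26 when an array was left out. The rule chose the members on both contrasts, so these counts describe the fit only. Between the in-flight groups the 6 became 3 with only the compared groups and 10 of 57 with the filter (17.5%, where 20.0% of all probe sets tested there were called, against 8.7% and 6.73% in the reported setting), and 3 to 9 when an array was left out. The rule gave 123 probe sets at a minimum difference of 0.3, 42 at 0.5 and 38 at a ground mean of at least 6, which follows from its construction, and 64 to 126 when an array was left out. Settings for the auxin list were chosen after seeing the data. Its 3 genes called in first-actuated roots became 1 with only the compared groups, 1 with all probe sets and 5 with the level filter, and 1 to 3 with an array left out. Its 1 gene in last-actuated roots became 3 with the filter and 1 to 2 with an array left out. Its 2 genes between the in-flight groups became 1 with only the compared groups, 1 with all probe sets, 1 with array weights and 1 to 2 with an array left out. Other causes of these moves were not tested. Same-numbered replicates did not deviate together, with correlations from -0.12 to 0.06. No pairing by number was seen, and deviations from means of 3 arrays cannot exclude one. With a replicate block, 36, 22 and 6 members were called in the 3 comparisons. Promoter motifs were not run, since no promoter sequence was used here.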

Other observations

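Of the 20927 probe sets unnamed here, 96 (0.459%) met the numeric conditions of the rule, against 74 of the 16722 with 1 gene (0.443%), and 7 of the 759 with several genes did. These probe sets carry no gene name and were not described further. Identical values on 2 or more of the 9 arrays, compared to 6 decimals, were found for 13 of the 69 members (18.8%) and for 34.1% of the 1-gene probe sets with a ground mean of at least 5.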
